A study of Mus musculus with 180 samples.

Results

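The genes described here are 8 regulators of G-protein signalling, Rgs1, Rgs2, Rgs3, Rgs10, Rgs14, Rgs16, Rgs18 and Rgs19, which were taken by symbol from the 45070 genes of the expression table. Rgs1 was selected on its rise with BGT226, so every value of BGT226 against DMSO is given as a description and no test of that comparison is reported. The cells were wild type bone marrow-derived macrophages of C57/BL6 mice, pretreated for 1 h with 1 of 58 clinical kinase inhibitors (CKIs) or with DMSO, the vehicle, before 2 h of LPS at 10 ng/ml, a bacterial product sensed by TLR4. Poly(A) RNA was sequenced in 180 samples, 3 for each CKI and 6 for DMSO, the latter labelled as 2 sets of 3. Every group received LPS, and unstimulated cells were not analysed here, so a value below does not show how a gene responds to LPS itself. Each CKI was used at 1 concentration that differed among CKIs, and most CKIs bind several kinases, so values of different CKIs are set side by side and not tested against each other. All comparisons share the same 6 DMSO samples.

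RGS proteins act on heterotrimeric G proteins. A receptor that has bound its ligand loads the G alpha subunit with GTP, and an RGS protein speeds the hydrolysis of that GTP, which ends the signal of both G alpha and the released G beta-gamma. In leukocytes the family is known for limiting how long chemokine and other chemoattractant receptors signal. Rgs1, Rgs2, Rgs3, Rgs16 and Rgs18 belong to the small R4 subfamily, Rgs10 and Rgs14 to the R12 subfamily, and Rgs19 to the RZ subfamily.

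In the mm10 build, 4 of the genes lie on chromosome 1. Rgs2 (chr1:143999338-144004149), Rgs1 (chr1:144244669-144249104) and Rgs18 (chr1:144752683-144775427) follow each other on the minus strand, and Rgs16 (chr1:153740353-153745468) lies apart on the plus strand. Rgs3 (chr4:62559847-62703019) and Rgs14 (chr13:55369732-55384687) are on plus strands, and Rgs10 (chr7:128373625-128418172) and Rgs19 (chr2:181688419-181693977) on minus strands. The values sum reads over all exons of a gene, so isoforms were not told apart. In the GENCODE M21 annotation, 236 of the 2339 exonic bases of Rgs16 overlap the antisense gene Gm28513, whose reads cannot be told apart from those of Rgs16 without strand, and the exons of the other 7 genes overlap no other gene.

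RefSeq promoters (GRCm38.p6) were found for 5 of the 8 genes, Rgs2, Rgs3, Rgs10, Rgs16 and Rgs19. The 250 bases before the start of Rgs2 (chr1:144004150-144004399, minus strand) and of Rgs16 (chr1:153740103-153740352, plus strand) are printed 5′ to 3′ because Rgs2 rose and Rgs16 fell with Omipalisib and PF04691502. Capitals mark the half-site of the cAMP response element (TGACG) and the CCAAT box (CCAAT), read on both strands.
Rgs2: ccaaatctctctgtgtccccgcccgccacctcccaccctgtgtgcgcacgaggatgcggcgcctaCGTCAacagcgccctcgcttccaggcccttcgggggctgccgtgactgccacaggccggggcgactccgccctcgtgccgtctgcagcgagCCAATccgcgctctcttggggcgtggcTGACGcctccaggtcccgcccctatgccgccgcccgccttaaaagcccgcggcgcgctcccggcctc
Rgs16: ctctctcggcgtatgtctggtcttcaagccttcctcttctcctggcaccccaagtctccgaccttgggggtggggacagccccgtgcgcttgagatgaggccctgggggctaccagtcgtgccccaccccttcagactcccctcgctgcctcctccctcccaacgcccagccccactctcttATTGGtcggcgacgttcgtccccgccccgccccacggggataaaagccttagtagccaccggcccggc
The Rgs2 stretch held TGACG on the plus sense 67 to 63 bases before the start and its reverse complement 185 to 181 bases before it, and the Rgs16 stretch held none. Both held 1 CCAAT box, 94 to 90 bases before the start in Rgs2 and, as the reverse complement, 68 to 64 bases before it in Rgs16, and in neither gene do the matches overlap. Among the 250-base stretches of all 32851 promoters of the table, 17.8% held TGACG and 33.8% held CCAAT. The TATA box (TATAAA, in 12.4% of promoters), the core of the FOXO motif (GTAAACA, 3.17%) and the AP-1 site (TGANTCA, 6.75%) were searched in the same way and not found in these 2 windows. These matches describe letters only.

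All 8 genes were among the 12714 whose mean over the samples reached 10, the filter for testing, and each had a mean of at least 71.3 in DMSO alone. A normalized value is a read count that the authors scaled between samples and rounded. Per kilobase of exon, Rgs10 had the highest level in DMSO, 2006 ± 151 (SD, n = 6), a level above that of 96.1% of the genes tested. Rgs19 followed with 461 ± 68.9 per kilobase and Rgs1 with 227 ± 110. Rgs14 (90.5 ± 18.7 per kilobase) and Rgs2 (88.6 ± 31.0) were close, then came Rgs18 (50.2 ± 24.9) and Rgs16 (40.4 ± 15.8), and Rgs3 was lowest with 9.34 ± 0.996. Of these neighbours only Rgs10 and Rgs19, and Rgs16 and Rgs3, had DMSO samples that did not overlap. Rgs1, Rgs18, Rgs16 and Rgs2 also varied most among the DMSO samples, with coefficients of variation of 48.4%, 49.6%, 39.2% and 35.1%, against 7.53% for Rgs10.

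The samples carried the macrophage genes: all 9 markers, among them Csf1r, Adgre1 and Lyz2, passed the filter, with a summed normalized value of 88403 to 252519. The T cell genes Cd3d, Cd3e and Cd3g, the B cell gene Cd79a, the neutrophil gene Ly6g, the fibroblast genes Pdgfra and Dcn, the mast cell or basophil genes Cpa3 and Mcpt8 and the megakaryocyte genes Itga2b and Gp9 had a median of 0. Of the T cell list none of 5 markers passed the filter (summed value 0 to 31 over the samples). Markers that passed were Cd79b, 1 of 4 for B cells (sum of the list 1 to 46), and S100a8, S100a9, Mpo and Elane, 4 of 5 for neutrophils (121 to 1444). Xcr1 was 1 of 4 for dendritic cells (33 to 162), and Col1a1 and Col1a2 were 2 of 4 for fibroblasts (4 to 221). Kit was 1 of 3 for mast cells or basophils (3 to 55), and Pf4 and Ppbp were 2 of 4 for megakaryocytes or platelets (2527 to 9398). With Omipalisib the sum was 114 to 162 for dendritic cells (61 to 92 in DMSO). For mast cells or basophils it was 30 to 39 (7 to 22 in DMSO, 40 to 55 with BGT226). For neutrophils it was 121 to 212 (185 to 526 in DMSO, 129 to 360 with BGT226). The part of these cell types in the results was not tested. In bulk RNA, fewer cells of a type and less RNA per cell cannot be told apart. The sums of normalized values were 9477340 to 12273349 per sample. The 3 BGT226 libraries, replicate 3 of Neratinib and replicate 2 of DMSO set 2 correlated least with the other libraries (median Spearman rho 0.953 to 0.958, against a median of 0.978 over samples). The share of mitochondrial transcripts differed between groups and was 1.15% ± 0.438 in DMSO (n = 6).

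Over the other 57 CKIs, Rgs1, Rgs2, Rgs3 and Rgs18 were called higher with 4 or 5 CKIs each, Rgs14 was called lower with 4, Rgs16 and Rgs19 lower with 2 each, Rgs2 also lower with 1, and Rgs10 was called with none. A call is an adjusted p under 0.05 against DMSO in the moderated test of limma, run on the log2 scale with 1 added to each value and adjusted over the 12714 genes. Of the 456 gene-CKI pairs, 19 (4.17%) were called higher, beside 2.15% of all gene-CKI pairs tested, and 9 (1.97%) lower, beside 1.57%. In either direction 3.72% of all pairs were called, and 78 of the 456 pairs had an unadjusted p under 0.05. Of all genes tested, 69.9% were called with at least 1 of the 57 CKIs and 14.6% with at least 5, with a median of 1. Rgs16 and Rgs19, with 2 calls each, had more calls than 52.9% of the genes. Of the calls over all genes 57.7% were higher, and 39.7% when the samples were scaled again by the median of ratios, which left 15 pairs called higher and 9 lower. The calls fell in 13 CKIs, and of the 44 CKIs with none, 17 had no called gene at all.

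In the test over all 57 CKIs together, limma's moderated F test, 5 of the 8 genes varied, beside 41.9% of all genes tested. They were Rgs1 (adjusted p = 2.19e-12), Rgs2 (2.07e-07), Rgs3 (1.39e-06), Rgs14 (8.04e-05) and Rgs18 (0.000439). Rgs16 (adjusted p = 0.0815), Rgs19 (0.149) and Rgs10 (0.236) did not pass. Which of these 3 passed depended on the fit: Rgs10 (0.0143) and Rgs19 (0.0491) did after scaling again by the median of ratios, and Rgs16 (0.00362) and Rgs19 (0.0299) did with the mitochondrial share as a covariate. With the replicate number as a block in the fit, Rgs16 (5.57e-10) and Rgs19 (1.46e-08) passed and Rgs10 (0.0633) did not. The spread of log2 fold changes over the 57 CKIs was wider for Rgs1 than for 99.8% of genes and narrower for Rgs10 than for all but 0.81% of them. The map of log2 fold changes shows that the columns of BGT226 and Omipalisib stand out in the rows of Rgs1, Rgs2 and Rgs16.

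**Figure D1:**
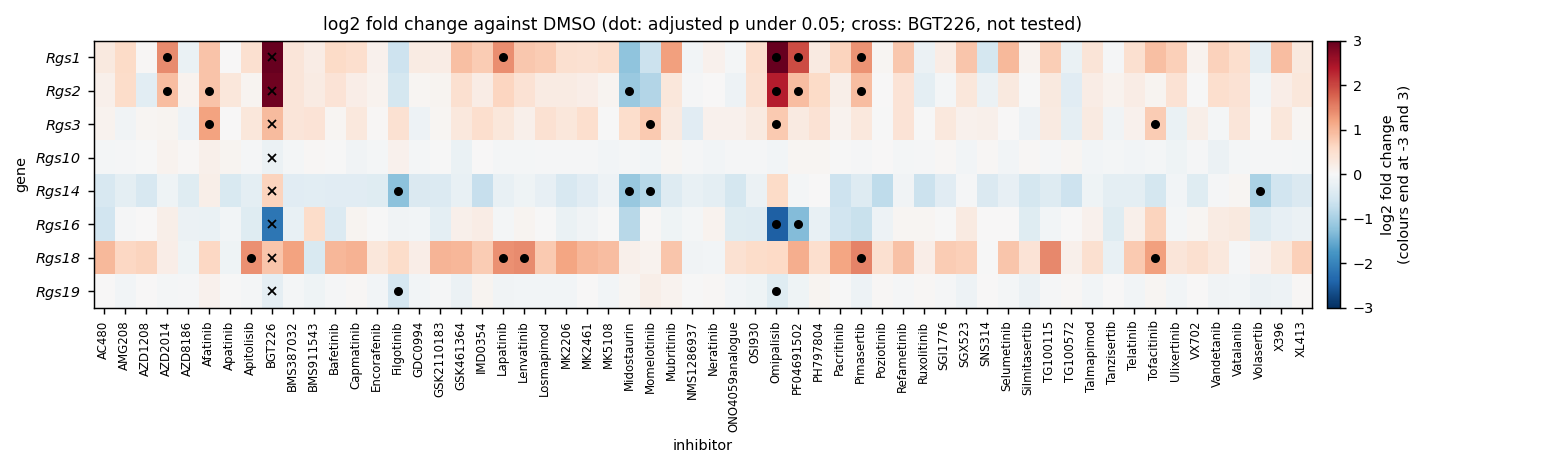
Log2 fold change against DMSO of the 8 genes (rows) with each of the 58 CKIs (columns), with colours that end at -3 and 3, dots for pairs with an adjusted p under 0.05 and crosses for BGT226, which was not tested. Rgs1 and Rgs2 are darkest red and Rgs16 darkest blue with BGT226 and Omipalisib, and the row of Rgs10 stays between -0.20 and 0.14 over the 57 CKIs tested.

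Rgs1, which is known to dampen chemokine receptor signals in lymphocytes and myeloid cells, had the widest range. Its normalized values in DMSO were 333, 309 and 147 in set 1 and 561, 280 and 182 in set 2, a mean of 302 ± 146. With BGT226, an inhibitor of PI3K and mTOR and the basis of the selection, they were 18305, 15169 and 8511, a difference of 5.59 on the log2 scale. With Omipalisib, another inhibitor of PI3K and mTOR, the values were 7178, 10004 and 4641. Every library of these 2 CKIs lay far above the highest DMSO sample.

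For Omipalisib the log2 fold change of Rgs1 was 4.65 (SE 0.43, adjusted p = 4.89e-17), a ratio of means of 24.1, in a comparison where 17.5% of all genes were called higher. Against DMSO set 1 or set 2 alone the difference was 4.80 or 4.50. PF04691502, also directed at PI3K and mTOR, gave 2108, 734 and 785, all above DMSO, and a log2 fold change of 1.95 (SE 0.43, adjusted p = 0.000799; 8.86% of genes called higher). Its first library was the highest, and without it the log2 fold change was 1.46 (adjusted p = 0.0726). AZD2014, an mTOR kinase inhibitor, gave 1208, 476 and 686, of which the second lay within the DMSO range (log2 fold change 1.41, adjusted p = 0.0112; 6.06% of genes called higher), and without its first library the difference was 1.05 (adjusted p = 0.17).

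The other 3 CKIs of the class directed at PI3K, mTOR or both overlapped DMSO. Rgs1 was 481, 319 and 370 with Apitolisib (log2 fold change 0.48, adjusted p = 0.448), 559, 354 and 492 with TG100115 (0.74, adjusted p = 0.261) and 651, 142 and 151 with AZD8186 (-0.19, adjusted p = 0.994). Of the 5 CKIs with a call of Rgs1 higher, 3 were of this class, and the others were directed at EGFR and ERBB2 or at MEK. Calls over all genes were also frequent within the class. They were 17.5% higher with Omipalisib, 12.7% with Apitolisib, 8.86% with PF04691502 and 6.06% with AZD2014, but 3 genes with TG100115 and 0 with AZD8186. The count of 3 was therefore not read as a trait of the class.

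Lapatinib, an EGFR and ERBB2 inhibitor, gave Rgs1 values of 739, 848 and 617 (log2 fold change 1.40, adjusted p = 0.016; 18.1% of genes called higher). Pimasertib, a MEK inhibitor, gave 801, 761 and 568 (log2 fold change 1.35, adjusted p = 0.0202; 16.0% of genes called higher). All 6 of these libraries lay above every DMSO sample. The calls were lost without replicate 1 (adjusted p = 0.0631) or 2 (0.0654) of Lapatinib, and without replicate 1, 2 or 3 of Pimasertib (0.0555 to 0.0711) or replicate 3 of DMSO set 1 (0.055). The mitochondrial share was 2.76% ± 0.90 with Lapatinib and 3.66% ± 0.552 with Pimasertib (n = 3 each), and with that share as a covariate the log2 fold changes of Rgs1 were 0.60 (adjusted p = 0.31) and 0.09 (0.936), while Omipalisib (4.32), PF04691502 (1.18) and AZD2014 (1.41) kept their calls. The share was read after treatment, and every Pimasertib library (3.24% to 4.29%) lay above the highest DMSO sample (1.94%). An effect of that CKI and of the share therefore cannot be told apart. At the low end, Midostaurin, a broad inhibitor of protein kinase C and FLT3, gave Rgs1 values of 184, 97 and 95 (log2 fold change -1.20, adjusted p = 0.0989), of which only the first lay within the DMSO range. With the replicate number as a block in the fit, Rgs1 was called lower with Midostaurin (adjusted p = 0.0158).

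**Figure D2:**
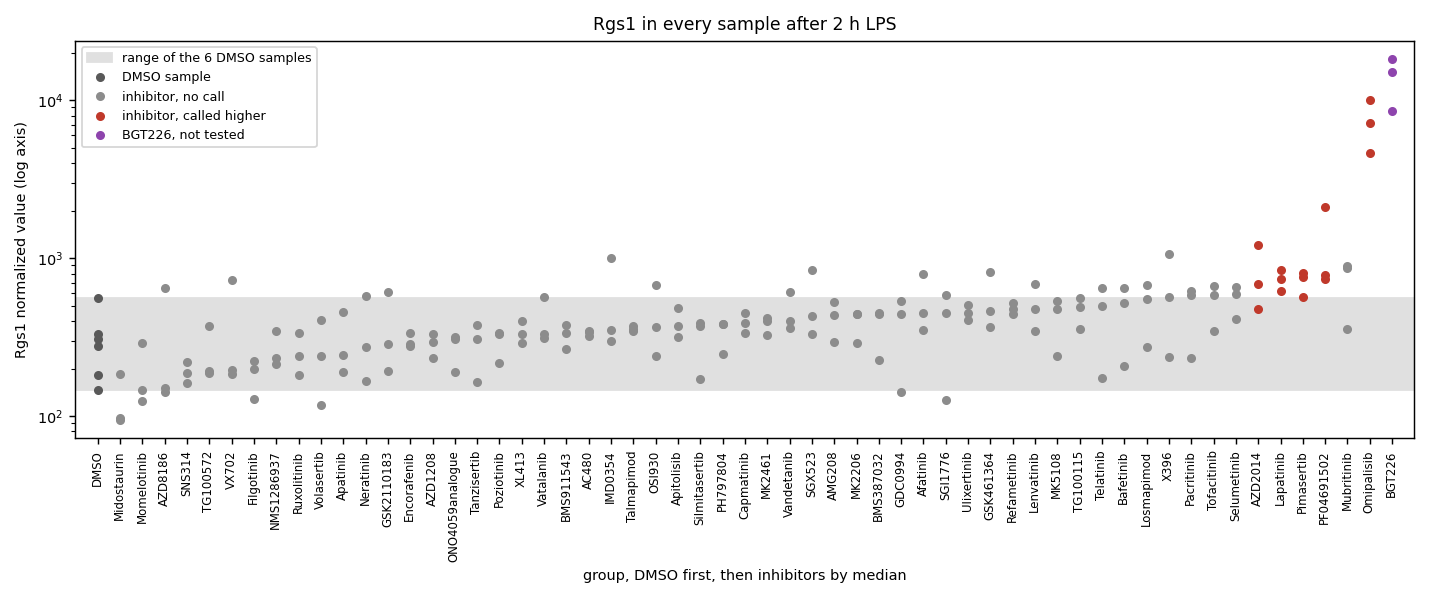
Rgs1 normalized value on a log axis in each of the 180 samples (points), with DMSO first and the 58 CKIs ordered by median, and a grey band for the range of the 6 DMSO samples. The Omipalisib and BGT226 libraries lie between 4641 and 18305, above all other libraries, and most CKIs without a call lie within or near the band of 147 to 561.

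Rgs2, which acts mainly on G alpha q and so on calcium signals, was, like Rgs1, highest with BGT226 and Omipalisib. Its normalized values in DMSO were 335, 249 and 187 in set 1 and 422, 197 and 209 in set 2. BGT226 gave 2241, 1931 and 1623 (log2 difference 2.91, not tested). Omipalisib gave 1310, 1567 and 1088, which was above every DMSO sample, with a log2 fold change of 2.36 (SE 0.32, adjusted p = 1.12e-09) and a ratio of means of 4.96.

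Rgs2 was also called higher with 4 CKIs at log2 fold changes close to 0.9. These were Pimasertib with 517, 450 and 484 (0.92, adjusted p = 0.0289), PF04691502 with 678, 423 and 391 (0.92, adjusted p = 0.0401), AZD2014 with 584, 401 and 474 (0.91, adjusted p = 0.0282) and Afatinib, an EGFR and ERBB2 inhibitor, with 595, 408 and 405 (0.86, adjusted p = 0.0398; 9.06% of genes called higher). Only the libraries of Pimasertib all lay above DMSO. These 4 calls lay near the threshold. Each was lost without replicate 3 of DMSO set 1 (adjusted p 0.0588 to 0.0775), replicate 2 of DMSO set 2 (0.0702 to 0.1) or replicate 3 of that set (0.0517 to 0.0703). The log2 fold changes were then 0.77 to 0.87. Those of Afatinib and PF04691502 were also lost without replicate 2 of DMSO set 1 (0.0557 and 0.0562). Each call was also lost when certain libraries of its own CKI were left out one at a time. These libraries were replicates 1 and 2 of Afatinib (adjusted p = 0.238 and 0.0991), 1 and 3 of AZD2014 (0.171 and 0.0717), 1 and 2 of PF04691502 (0.333 and 0.0618) and all 3 of Pimasertib (0.0655 to 0.0974). With the replicate number as a block in the fit, the 4 calls held (adjusted p 0.00254 to 0.00508). With the mitochondrial share as a covariate, the log2 fold changes were 0.50 with PF04691502 (adjusted p = 0.337; mitochondrial share 2.69% ± 1.53) and 0.24 with Pimasertib (0.757), and the other calls of Rgs2 held.

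Midostaurin was the 1 CKI with a call of Rgs2 lower, with 192, 94 and 89, of which the first lay within the DMSO range (log2 fold change -1.11, adjusted p = 0.0199; 1.93% of genes called lower). The call was lost without replicate 2 (adjusted p = 0.151) or 3 (0.247) of Midostaurin or replicate 1 of DMSO set 2 (0.0641). Momelotinib gave 168, 156 and 102, all below DMSO, without passing (-0.87, adjusted p = 0.255). Over the means of the 59 groups the log2 values of Rgs1 and Rgs2 had a Pearson correlation of 0.94, and of 0.86 without BGT226 and Omipalisib. Both genes were read in the same libraries, so any feature of a library enters both. The next pairs were Rgs2 and Rgs14 (0.82, or 0.73 without the same CKIs) and Rgs1 and Rgs14.

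Rgs16, a regulator of G alpha i and G alpha q that chemokine receptors engage, was called lower with Omipalisib and PF04691502, with which Rgs1 and Rgs2 were called higher. Without replicate 1 of PF04691502 its calls of Rgs1, Rgs2 and Rgs16 were all lost (adjusted p = 0.0726, 0.333 and 0.434). The normalized values of Rgs16 in DMSO were 63, 109 and 113 in set 1 and 35, 131 and 115 in set 2. Omipalisib gave 15, 8 and 28, all below the lowest DMSO sample, and a log2 fold change of -2.44 (SE 0.44, adjusted p = 5.09e-06; 8.16% of genes called lower), with the mean at 18.0% of that in DMSO. This call was lost when replicate number 2 was left out of all groups (adjusted p = 0.065). BGT226 gave 23, 19 and 14, which was also below every DMSO sample (log2 difference -2.18, not tested).

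PF04691502 gave Rgs16 values of 16, 54 and 46, of which the last pair overlapped DMSO (log2 fold change -1.31, adjusted p = 0.0361; 4.22% of genes called lower). The library with the lowest Rgs16 was the one with the highest Rgs1 and Rgs2, and its mitochondrial share was 4.45%, against 1.71% and 1.91% in the other two. Without it the log2 fold change was -0.78 (adjusted p = 0.434), and the call was also lost without replicate 2 or 3 of either DMSO set (0.0606 to 0.0963) and with the mitochondrial share as a covariate (-0.78, adjusted p = 0.285). Rgs16 was 53, 68 and 82 with Apitolisib, 49, 83 and 131 with TG100115, 71, 73 and 86 with AZD8186 and 72, 106 and 124 with AZD2014 (log2 fold change 0.18), none of which passed the test against DMSO (adjusted p 0.587 to 0.996). The log2 fold changes of the remaining CKIs lay between -0.84 and 0.66, and none passed. With the replicate number as a block in the fit, Rgs16 was called lower with Midostaurin (adjusted p = 0.0331) and Pimasertib (0.0389). The DMSO values were lowest in replicate 1 of both sets, the replicates with the highest Rgs1, Rgs2 and Rgs18.

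Rgs3, an R4 member with long and short isoforms, was low and even in DMSO, with 81, 70 and 66 in set 1 and 79, 61 and 71 in set 2. Afatinib gave 157, 187 and 157, the highest mean of the gene among all CKIs, with a log2 fold change of 1.22 (SE 0.20, adjusted p = 1.68e-06) and a ratio of means of 2.34. Omipalisib gave 148, 129 and 98 (log2 fold change 0.79, adjusted p = 0.00142), a call that was lost when replicate number 2 was left out of all groups (0.0719). The JAK inhibitors Momelotinib, with 109, 133 and 129 (0.79, adjusted p = 0.0256), and Tofacitinib, with 115, 128 and 119 (0.76, adjusted p = 0.0164), followed.

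Every library of these 4 CKIs lay above all 6 DMSO samples. With Momelotinib only 0.378% of all genes were called higher, and with Tofacitinib 9.02%. BGT226 gave 181, 112 and 127 (log2 difference 0.94, not tested). The other 4 JAK inhibitors had log2 fold changes from -0.02 to 0.45 and no call. The Momelotinib call was lost without its replicate 2 (adjusted p = 0.232) or 3 (0.225) or replicate 2 of DMSO set 1 (0.0505) or set 2 (0.0858), and the Tofacitinib call without its replicate 2 (0.172), without replicate 2 of DMSO set 2 (0.0523) and with the mitochondrial share as a covariate (0.61, adjusted p = 0.0984).

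**Figure D3:**
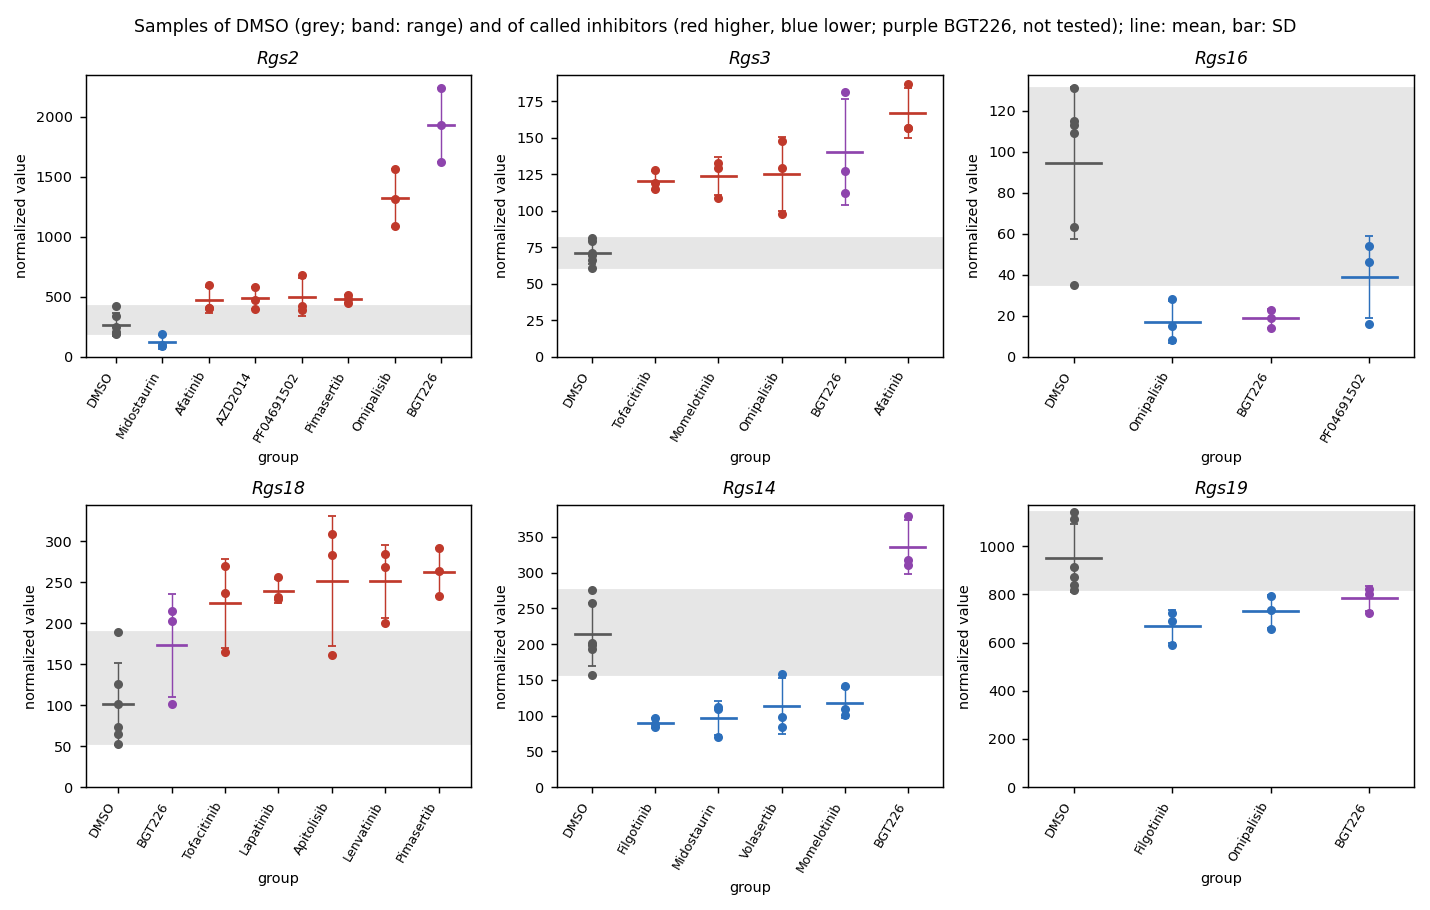
Normalized values of Rgs2, Rgs3, Rgs16, Rgs18, Rgs14 and Rgs19 in the samples (points) of DMSO, of the CKIs with a call (red higher, blue lower) and of BGT226 (purple, not tested), with the mean (line), the SD (bar) and a grey band for the range of the 6 DMSO samples. The Omipalisib values of Rgs2 (1088 to 1567) lie above the DMSO band and those of Rgs16 (8 to 28) below it, while the Rgs14 values of Filgotinib (84 to 97) lie below their band.

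Rgs18, which is abundant in platelets and megakaryocytes and is also made by other blood cells, rose with 5 CKIs of different classes. Its normalized values in DMSO were 126, 65 and 74 in set 1 and 189, 53 and 102 in set 2. Pimasertib gave 263, 233 and 292 (log2 fold change 1.49, SE 0.39, adjusted p = 0.00624). Lapatinib gave 232, 256 and 230 (1.36, adjusted p = 0.0117). The libraries of both CKIs lay above every DMSO sample.

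Lenvatinib, a VEGF receptor inhibitor, gave 200, 269 and 284, all above DMSO (1.42, adjusted p = 0.0248; 11.4% of genes called higher). Apitolisib gave 283, 161 and 309 (1.38, adjusted p = 0.0188; 12.7% of genes called higher), and Tofacitinib gave 270, 237 and 165 (1.24, adjusted p = 0.0361), each with 1 library within the DMSO range. TG100115, with 214, 215 and 351, all above DMSO, came next without passing (1.44, adjusted p = 0.0557). Omipalisib gave 158, 176 and 99, all within the DMSO range (0.60, adjusted p = 0.267), and BGT226 203, 215 and 101, of which the last was within it (0.82, not tested). Of the 57 CKIs, 49 had a log2 fold change above 0, with a median of 0.62.

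The level of Rgs18 moved with the share of mitochondrial transcripts. Over the 59 groups the Pearson correlation of its mean log2 value with that share was 0.84 (Spearman rho 0.86), beside a median of 0.16 and a range from -0.51 to 0.76 for the central 90% of the genes tested. Both quantities come from the same libraries. Among the 6 DMSO samples, too, the order of Rgs18 was that of the mitochondrial share, which ran from 0.759% to 1.94%. The 5 CKIs with a call had mean shares of 2.64% to 3.66%. With the share as a covariate none of the 5 passed, with log2 fold changes of 0.14 to 0.55 and adjusted p of 0.232 to 0.835. The share was read after treatment, so an effect of a CKI and of the share cannot be told apart in this fit.

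The Rgs18 calls, except that of Pimasertib, were also lost when certain single libraries were left out. Without replicate 2 of DMSO set 2, the lowest DMSO sample for Rgs18, the calls of Apitolisib (adjusted p = 0.0785), Lenvatinib (0.0817) and Tofacitinib (0.118) were lost, and that of Tofacitinib also without replicate 2 (0.0643) or 3 (0.0691) of DMSO set 1. Of the CKI libraries, the calls were lost without replicate 1 of Lapatinib (0.0527), replicate 1 or 3 of Apitolisib (0.0621 and 0.141), replicate 2 or 3 of Lenvatinib (0.0562 and 0.179) and replicate 1 or 2 of Tofacitinib (0.15 and 0.2). Of the 4 megakaryocyte or platelet markers, Itga2b and Gp9 had a median of 0, and Pf4 and Ppbp passed the filter. Their summed value was 2816 to 6786 in DMSO and 4812 to 8254 over the libraries of the 5 CKIs. The Apitolisib libraries (7265 to 8254) all lay above DMSO. The lowest sums with Lapatinib, Lenvatinib, Pimasertib and Tofacitinib (4812 to 6547) lay within the DMSO range. The part of this sum in these calls was not tested.

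**Figure D4:**
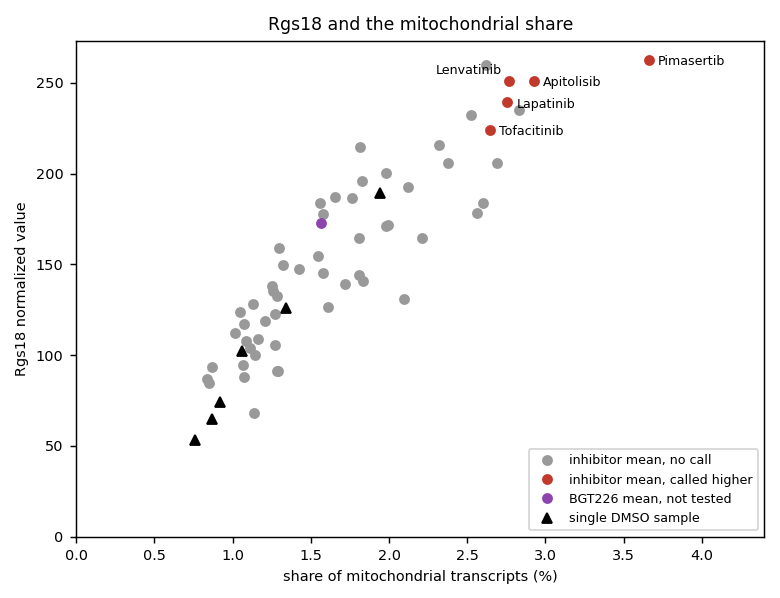
Mean normalized value of Rgs18 against the mean share of mitochondrial transcripts in percent for each CKI (circles; red for an adjusted p under 0.05, purple for BGT226, which was not tested), with the 6 DMSO samples as triangles. The 5 CKIs with a call lie at shares of 2.64% to 3.66%, and the DMSO samples rise from 53 at 0.759% to 189 at 1.94%.

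Rgs14, an R12 member that besides its RGS domain binds inactive G alpha i through a GoLoco motif, was the gene that fell most often. Its normalized values in DMSO were 199, 275 and 157 in set 1 and 201, 258 and 193 in set 2. Filgotinib, a JAK inhibitor, gave 84, 97 and 88, all below the lowest DMSO sample, with a log2 fold change of -1.22 (SE 0.23, adjusted p = 1.98e-05), in a comparison where 14.6% of all genes were called lower. The mean was 41.9% of that in DMSO. Midostaurin gave 70, 110 and 112, again all below DMSO (-1.13, adjusted p = 0.000272).

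Volasertib, an inhibitor of PLK1, gave 98, 84 and 158, of which the last lay within the DMSO range (-0.94, adjusted p = 0.0111; 1.34% of genes called lower). Momelotinib gave 101, 110 and 141, all below DMSO (-0.85, adjusted p = 0.0448; 0.409% of genes called lower). The Filgotinib and Midostaurin calls held without any 1 library. The Volasertib call was lost without its replicate 1 (adjusted p = 0.156) or 2 (0.0855), and the Momelotinib call without any of its 3 libraries (0.0847 to 0.289) or without replicate 1 or 2 of DMSO set 1 (0.054 and 0.131) or replicate 1, 2 or 3 of DMSO set 2 (0.0508, 0.134 and 0.0516).

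All 6 JAK inhibitors had a negative log2 fold change of Rgs14, from -1.22 to -0.32, but 53 of all 57 CKIs did too, with a median of -0.34, and only Filgotinib and Momelotinib passed among the 6. In the other direction BGT226 gave 310, 318 and 379, all above DMSO (log2 difference 0.67, not tested), and Omipalisib 246, 297 and 416, of which the first lay within the DMSO range (0.57, adjusted p = 0.0555). Rgs14 was thus the highest with the same 2 CKIs as Rgs1, and over the 59 groups its Pearson correlation with Rgs1 was 0.73, or 0.58 without these 2.

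Rgs10, the smallest R12 member and the one known for limiting inflammatory activation of microglia and macrophages, was the most even of the 8 genes. Its DMSO values were 1784, 1573 and 1932 in set 1 and 1817, 1627 and 1796 in set 2. Over the 57 CKIs its log2 fold change ran from -0.20 to 0.14, and no CKI passed in limma's test (lowest adjusted p = 0.139, with 3 CKIs at an unadjusted p under 0.05). BGT226 gave 1641, 1684 and 1361 (log2 difference -0.17, not tested), and Omipalisib 1687, 1738 and 1519 (-0.09, adjusted p = 0.365).

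Rgs19, the RZ member first found as a partner of G alpha i3, had DMSO values of 837, 914 and 1143 in set 1 and 819, 873 and 1112 in set 2. Filgotinib gave 591, 688 and 723 (log2 fold change -0.50, SE 0.11, adjusted p = 0.000391) and Omipalisib 657, 735 and 795 (-0.37, SE 0.11, adjusted p = 0.00801). All 6 libraries lay below the lowest DMSO sample, with means at 70.3% and 76.8% of that in DMSO. BGT226 gave 723, 823 and 803, of which 1 overlapped DMSO (log2 difference -0.27, not tested). The Omipalisib call was lost without its replicate 1 (-0.30, adjusted p = 0.0986). The other 55 CKIs had no call, and all log2 fold changes of the gene lay between -0.50 and 0.18.

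By CKI, Omipalisib changed 5 of the 8 genes: Rgs1, Rgs2 and Rgs3 rose, and Rgs16 and Rgs19 fell, in a comparison where 17.5% of all genes were called higher and 8.16% lower. PF04691502 and Pimasertib changed 3 each, PF04691502 Rgs1 and Rgs2 up and Rgs16 down, and Pimasertib Rgs1, Rgs2 and Rgs18 up (all genes: 8.86% higher and 4.22% lower with PF04691502, 16.0% higher with Pimasertib). Calls of 2 genes higher were made with AZD2014 (all genes: 6.06% higher), Lapatinib (18.1%), Afatinib (9.06%) and Tofacitinib (9.02%). Filgotinib (all genes: 14.6% lower) and Midostaurin (1.93%) had 2 genes lower each. Momelotinib had 1 higher (all genes: 0.378%) and 1 lower (0.409%). Apitolisib (all genes: 12.7% higher) and Lenvatinib (11.4%) had 1 higher each, and Volasertib (all genes: 1.34% lower) had 1 lower.

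The neighbours of Rgs1 on chromosome 1 were compared for Omipalisib. Within 1000 kb of its start the table lists 21 other genes, of which 7 passed the filter, and 2 of the 7 were called higher and none lower, beside 17.5% and 8.16% of all genes. These were Rgs2 (start 245 kb away) and Ro60, which encodes an RNA-binding autoantigen (start 472 kb away; log2 fold change 0.53, adjusted p = 0.00763). Rgs13 and Rgs21, the R4 members that lie within the same stretch, were at or near 0 in all samples, with a highest value of 1 each. Rgs18, 526 kb from Rgs1, did not pass. Around Rgs16, 13 of 40 other genes passed the filter, of which 4 were called higher and 1, Arpc5, lower, beside the same shares.

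**Figure D5:**
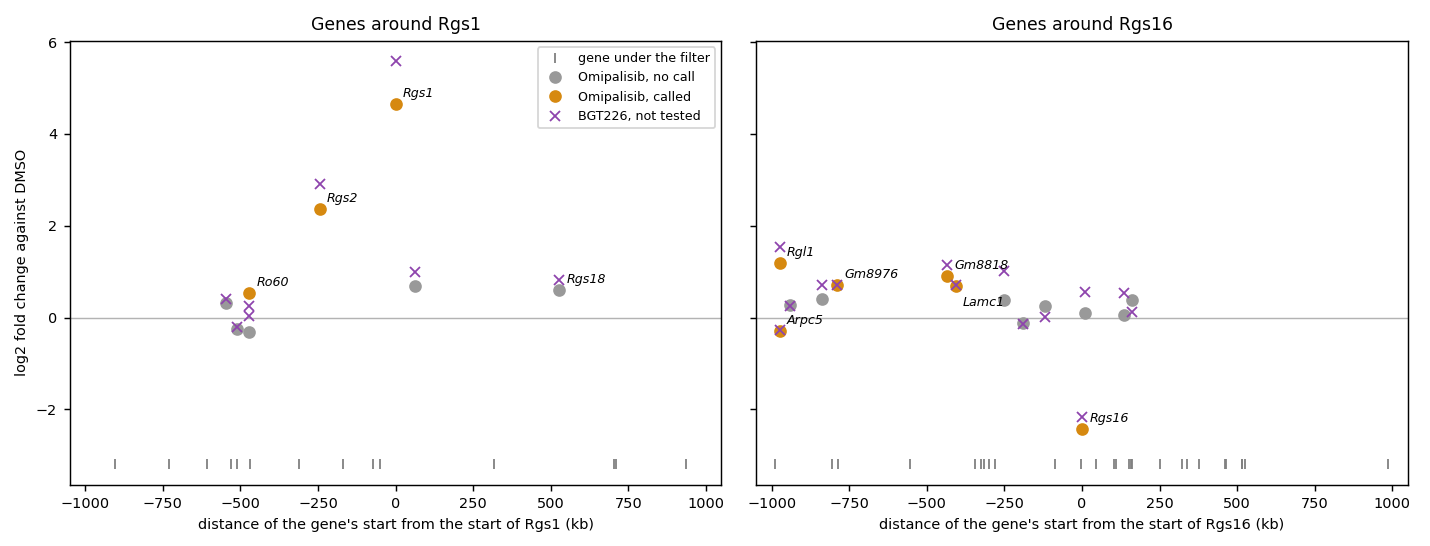
Log2 fold change against DMSO with Omipalisib (circles; orange for an adjusted p under 0.05) and BGT226 (crosses, not tested) of the genes within 1000 kb of the start of Rgs1 (left) and Rgs16 (right), by the distance of their starts in kb, with ticks for genes under the filter. Rgs1 (4.65) and Rgs2 (2.36) stand above the other genes of the left panel, and Rgs16 (-2.44) is the lowest point of the right panel.

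Genes with the most similar pattern were taken as the 3 with the highest Pearson correlation of group means over the 59 groups, BGT226 included. For Rgs1 they were Rgs2 (0.94), Slfn10-ps (0.92) and Cyren (0.91), and for Rgs2 they were Rgs1, Tmem140 (0.93) and Cyren (0.92). Without BGT226 and Omipalisib the values of Slfn10-ps and Cyren for Rgs1 fell to 0.77 and 0.72, and those of Tmem140 and Cyren for Rgs2 to 0.82 and 0.81. For Rgs16 the closest were Elane (0.80), Cx3cl1 (0.80) and Gm51543 (0.78), which without these 2 CKIs came to 0.49, 0.65 and 0.63. Elane, a neutrophil marker named above, had a DMSO mean of 21 and a log2 fold change of -3.69 with Omipalisib (adjusted p = 2.02e-14). A part of neutrophils in the values of Rgs16 was not tested.

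For Rgs18 they were Cd84 (0.94), Hnmt (0.93) and Cd36 (0.93), a scavenger receptor, with values of 0.93 to 0.95 without the same 2 CKIs. For Rgs14 they were Sh3bp2 (0.87), Nectin4 (0.85) and Tmem67 (0.84), and for Rgs3 Pgpep1 (0.82), Hvcn1 (0.81) and Mettl3 (0.78). Without the same 2 CKIs the values were 0.78 to 0.88 for Rgs14 and 0.76 to 0.78 for Rgs3. For Rgs19 they included Pex2 and Srp19 (0.75 each), and for Rgs10 Ndufb5, Atp5c1 and Cnpy2 (0.63 to 0.58), which were the lowest. All of these correlations are over group means from the same libraries.

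The other genes of G-protein signalling were read from 6 lists. Of 15 other RGS genes and RGS-binding proteins, 3 passed the filter, Rgs9, Rgs12 and Rgs7bp, and 2 of their 171 gene-CKI pairs were called, both Rgs9 higher, with Omipalisib (normalized values 10.3 in DMSO and 30 with the CKI; log2 fold change 1.60, adjusted p = 0.000444) and PF04691502. Among 13 genes with an RGS homology domain, such as the receptor kinases and RhoGEFs, 5 pairs were called higher and 3 lower (1.08% of pairs, beside 3.72% of all pairs), led by Akap10 (lower with 2 CKIs) and Arhgef1 (higher with 2). Among 9 G alpha genes 6 pairs were called higher and 15 lower (4.09%), led by Gna15, lower with 5 CKIs, and Gnai3, lower with 4.

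Of 12 G beta and G gamma genes 12 pairs were called higher and 9 lower (3.07%), led by Gnb1, higher with 5 CKIs, and Gnb4, lower with 5. The 36 receptors gave 78 pairs higher and 29 lower (5.21%). Cxcr4, the receptor of the chemokine Cxcl12, was called higher with 12 CKIs, more than any other listed gene, and its mean was 18.7 ± 20.6 in DMSO (n = 6) and 366 with Omipalisib (log2 fold change 4.83, adjusted p = 2.28e-13). Gpr183, a receptor for oxysterols, was called higher with 9 CKIs, and Adora2b, an adenosine receptor, higher with 3 and lower with 6. Of 25 effectors and feedback genes 21 pairs were called higher and 30 lower (3.58%), led by Gpsm2, lower with 7 CKIs, and Pde4b, a cAMP phosphodiesterase, higher with 3 and lower with 4. Beside these counts, 14.6% of all genes tested were called with at least 5 CKIs.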

How the data were processed

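RNA-seq (SMART-seq2, poly(A)) was available for 180 samples, grouped by their titles. The authors aligned reads to mm10 with TopHat2 2.1.1, removed reads in blacklisted regions with bedtools 2.29.2, counted the rest on RefSeq exons in R, scaled samples on genes that varied little and deposited values rounded to whole numbers, a score here called normalized value. The authors ran their own tests in DESeq2, with its normalization switched off. Count tests were not used here, because the values are no longer counts. Read depth per sample is therefore not known, and low values carry a large counting error. No column was left without a sample.

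The 12714 of 45070 genes with a mean of at least 10 were fitted on log2(normalized value + 1) with limma 3.58.1 in R 4.3.3, with a variance trend and all 59 groups in 1 fit (residual degrees of freedom 121). Each CKI was compared with 6 DMSO samples and p-values were adjusted by Benjamini-Hochberg over genes; fold changes on this scale understate changes of low genes. BGT226 was left out of tests. The F test covered the other 57 CKIs. The script was tested on simulated data. For each gene the CKIs named are those with an adjusted p under 0.05, at most 5 in each direction, and BGT226; from each list the genes called with most CKIs are named (up to 3). The genes, lists and tests were chosen with earlier results of these data known. Replicates are separate samples by their labels, and p-values measure the spread between samples of a group, pooled over the 59 groups. Deviations shared by a replicate number stay in that spread in the main fit. Alternatives changed the pseudocount, filter, scaling, DMSO set, trend, samples in the fit, replicate block and single replicates, and, added after seeing the data, the mitochondrial share and single libraries. Promoters are RefSeq entries of the reference table. Of the markers and the genes of similar pattern, 1 each is not reported here by name.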

Additional observations from a re-analysis of the deposited data

How the results depend on the processing

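No called pair of a gene and a CKI changed direction under any alternative, and 6 of the 28 kept their call under all 15 settings, of which 5 also without any single library: Omipalisib for Rgs1 and Rgs2, Afatinib for Rgs3, and Filgotinib and Midostaurin for Rgs14. The 19 pairs called higher became 10 against DMSO set 1 alone, 6 against set 2 alone, 10 with a mitochondrial share covariate and 4 to 20 without 1 replicate number. Without single libraries they were 11 (replicate 2 of DMSO set 2 left out) to 23. The 9 pairs called lower became 5 against set 1 alone, 3 with only the CKI and DMSO in the fit, 14 with the mitochondrial share and the replicate block and 3 to 6 without 1 replicate number, and were 7 to 9 without single libraries. The 5 genes that varied were 3 to 5 without 1 replicate number and 5 without any single library, and 7 after scaling again by the median of ratios (with Rgs10 and Rgs19) or with the mitochondrial share, alone or with the replicate block (with Rgs16 and Rgs19). The F test was not run with only the CKI and DMSO in the fit. The 210 called pairs of the pathway lists became 110 against either set alone, 84 with only the CKI and DMSO, 447 with the replicate block, 59 to 215 without 1 replicate number, 118 without replicate 2 of DMSO set 2 and 333 without its replicate 1. The cause of these shifts was not tested. Calls over all genes and 57 CKIs fell from 15552 higher and 11392 lower to 5848 and 5720 (set 1 alone), 6545 and 8427 (set 2 alone), 5865 and 4041 (only the CKI and DMSO), 2512 and 3305 (without replicate 2) and 4952 and 10638 (without replicate 3), and were 10277 and 15636 after scaling again by the median of ratios, which moved the median log2 fold change of all genes by at most 0.19 (from 0.21 to 0.02 with BGT226) and left Rgs1 at 5.40, Rgs2 at 2.71 and Rgs16 at -2.36 with BGT226.

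The replicate numbers were not taken as pairs in the main fit, although samples of the same number tended to deviate alike. Of 174 CKI samples, 144 deviated from their group in a way that correlated by more than 0.1 with the DMSO samples of that number. The median correlation was 0.35 (range -0.52 to 0.73), and 126 samples correlated best with their own number. The main fit leaves this shared deviation in its spread, and the replicate block takes it into account. With the replicate block 28 pairs were called higher and 13 lower, which include all 28 pairs called without it, 7 genes varied (with Rgs16, adjusted p = 5.57e-10, and Rgs19, 1.46e-08), and 30257 and 21417 calls were made over all genes. The pairs called only with the block were Rgs1 higher with Afatinib, Mubritinib and Tofacitinib and lower with Midostaurin. For Rgs2 they were Lapatinib higher and Momelotinib lower, and for Rgs14 Omipalisib higher. For Rgs16 they were Midostaurin and Pimasertib lower, and for Rgs18 MK2206, Pacritinib, PF04691502 and TG100115 higher.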
